A study of Homo sapiens with 4 samples.

Results

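The netrins, the Slits and their receptors were examined in A2780s, an established human epithelial ovarian cancer (EOC) cell line, as 10 genes among 29117 gene names on the array. They were the netrin receptors UNC5A, UNC5B, UNC5C, UNC5D and DCC, the ligands NTN1 and NTN4, the Slit ligand SLIT2, and the Slit receptors ROBO1 and ROBO2. The genes were chosen by name and family, and the family was selected because UNC5B is among the largest falls on the GALNT3/T6-labelled arrays. The values of UNC5B that involve those arrays are therefore given as a description, with no test. GALNT3 and GALNT6 encode enzymes that start mucin-type O-glycosylation, and the study asked what changes when one or both are suppressed. Every array set RNA of 1 KO clone (Cy5) against RNA of mock-transfected A2780s cells (Ctrl, Cy3), with 2 CRISPR-Cas9 clones for GALNT3 KO and 2 clones for GALNT3/T6 KO, the latter being GALNT3 KO clones that also carry an shRNA against GALNT6. The GALNT6 knockdown cannot be told apart from the transduction that delivered it, and each KO sample is a single clone. Values are given as the log2 of KO over Ctrl after background correction and loess normalization, unless a sentence gives a channel's signal.

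Netrins are laminin-related proteins that are secreted or held in the matrix, and they steer axons and migrating cells. DCC mediates attraction to netrin-1, whereas the UNC5 receptors mediate repulsion. DCC and the UNC5 proteins are also called dependence receptors, since they can trigger apoptosis when netrin is absent. Slits are secreted repellents that bind the Robo receptors, and both families are known to be silenced or altered in several carcinomas. Netrin-4 differs from netrin-1 in that it is a basement membrane component that binds laminin.

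On the array, 17 probes carried the names of the 10 genes, and 14 of these passed the filter on dim probes. This left 9 genes to be tested, since the only UNC5D probe did not pass. The probes on which the results turn are shown by the first 30 of their 60 bases, written 5′ to 3′ in the sense of the transcript, so that the probes of 1 gene that disagree below can be told apart. Their positions on hg19 are those of the array's own annotation, and whether they lie in an exon or a UTR was not analysed here.
UNC5B, chr10:73059597-73059656, plus strand: aaaccacaagggaaaagaaaaacccagttt
UNC5C probe 1, chr4:96089714-96089773, minus strand: ctaagtgtaaaaaagaaataactaagactc
UNC5C probe 2, chr4:96084379-96084438, minus strand: gccttttctatcccgaaagtaacaaatggc
UNC5C probe 3, chr4:96141165-96141224, minus strand: gaatcatcgtgactttgagtcagatattat
NTN4, chr12:96051975-96052034, minus strand: atgtagacatatgcttggctaaaggggaaa
SLIT2, chr4:20620432-20620491, plus strand: aagcagcagggctatgctgcttgccaaaca
ROBO1 probe 1, chr3:78646795-78646854, minus strand: tggccaatgtcgaaacctacaagatttcct
ROBO1 probe 2, chr3:78649391-78649450, minus strand: taccttattgtagacctacttttccaacat

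Before the members are described, the labels were checked on the targeted genes. On the 2 GALNT3 KO arrays, neither channel of GALNT3 was well above background, whereas it gave log2 ratios of 4.80 and 5.08 on the GALNT3/T6-labelled arrays, opposite to the label. GALNT6 gave -0.47 and -0.38 on the GALNT3 KO arrays and -0.66 and -0.69 on the others. The group is therefore called by its label throughout. The Ctrl channels correlated with each other at 0.978 to 0.997 across genes, which are not independent replicates. The Ctrl channel of the GALNT3 KO arrays correlated with the KO channel of the GALNT3/T6-labelled arrays at 0.881 to 0.898. Between 86.9% and 93.8% of spots were well above background in a channel, no spot was saturated, and the precision is limited by having only 4 arrays. Epithelial markers (6 listed, 6 tested) were called higher for 5 genes on the GALNT3/T6-labelled arrays, with KRT18 at 5.68. Beside this and the marker counts below, 24.8% of all genes were called higher on those arrays and 23.1% lower. The epithelial list's summed log2 signal was 19.76 to 19.85 there, 12.84 to 13.04 on the GALNT3 KO arrays and 12.60 to 15.45 in the Ctrl channels. Most of the first sum is KRT18 and KRT19, with mean KO signals of 18.64 and 18.59 on those arrays, against 8.81 for EPCAM and 8.16 for CDH1. The Ctrl channel was itself brighter on the GALNT3/T6-labelled arrays, where KRT18 read 13.37 and 12.56 in Ctrl, against 10.61 and 10.35 on the GALNT3 KO arrays. What this does to the ratios was not tested. Among fibroblast markers (5 tested) 2 were called higher and 2 lower on those arrays, with summed log2 signals of 12.69 to 13.59 against 10.73 to 10.92 for GALNT3 KO and 11.09 to 11.76 for Ctrl. The endothelial list (4 tested) had 3 genes called higher, the ovarian and Mullerian list (4 tested) 2, and PAX8 and WT1 were well above background in Ctrl. So were all 4 leukocyte, all 5 fibroblast and 4 of 5 neural markers, so being above background does not tell cell types apart here. The part of the marker shifts in the results below was not tested.

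UNC5B had ratios below 0 on all 4 arrays, and its signal was far lower on the GALNT3/T6-labelled arrays than in the GALNT3 KO clones. UNC5B, which binds netrin-1 and is best known from vessel sprouting, gave log2 ratios of -0.25 and -0.70 in the GALNT3 KO clones. The mean of -0.47 ± 0.14 (SE, n = 2) corresponds to 72.0% of Ctrl and was not called (adjusted p = 0.0892, 95% interval of the single gene -0.84 to -0.11). It was called lower with scale normalization between arrays (adjusted p = 0.0389) and with the spread of the 2 GALNT3 KO arrays alone (adjusted p = 0.0178), which is also the spread left when either array of the other group is omitted. On the GALNT3/T6-labelled arrays the log2 ratios were -5.01 and -5.22, so the 2 groups did not overlap. The mean there was -5.12 ± 0.14 (SE, n = 2), or 2.88% of Ctrl. This is the value by which the family was picked, and it ranked 4th from the lowest of 27220 genes. The Ctrl channel of the UNC5B probe was even over the arrays, with normalized log2 signals of 14.85, 14.56, 14.50 and 14.58. The KO channel read 14.60 and 13.86 for the GALNT3 KO clones against 9.49 and 9.36 for the clones labelled GALNT3/T6 KO. UNC5B stayed well above background in both channels on all 4 arrays, so that the remaining signal was measured and is no bound. In RNA from a whole clone, fewer cells with UNC5B and less UNC5B RNA per cell cannot be told apart.

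**Figure D1:**
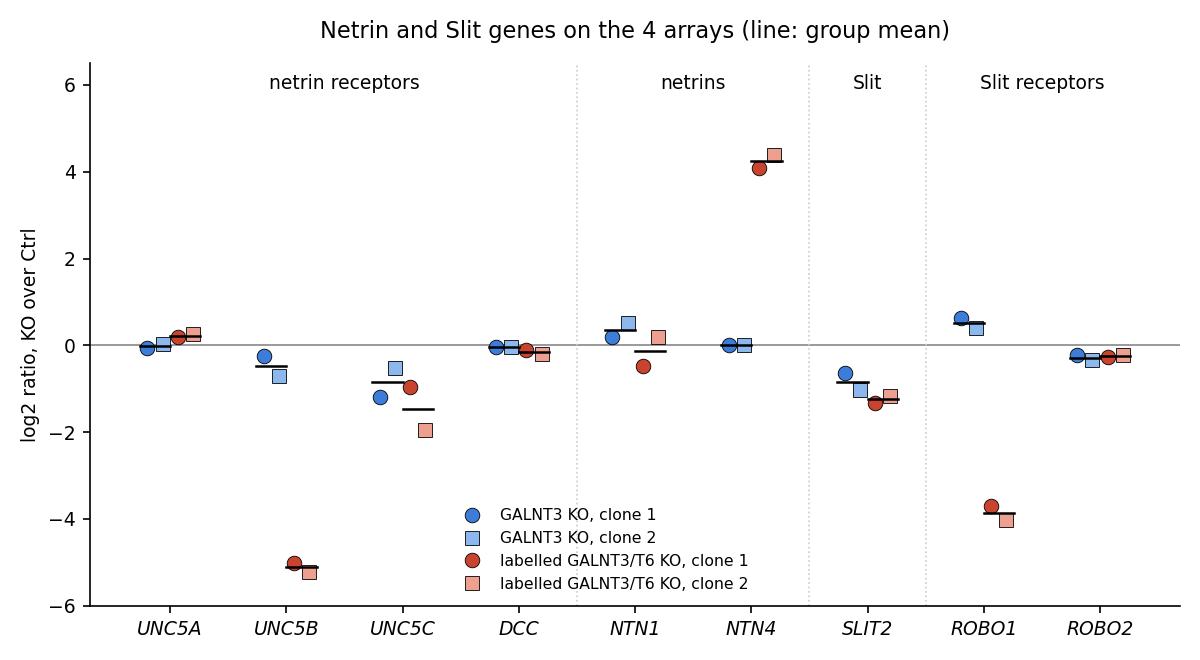
Log2 ratio of KO over Ctrl (vertical axis) for the 9 genes that passed the filter (horizontal axis, grouped by role), 1 point per array and a line at each group's mean of 2 arrays. UNC5B at -5.01 and -5.22 and ROBO1 at -3.69 and -4.02 stand far below 0 on the GALNT3/T6-labelled arrays and NTN4 at 4.10 and 4.39 far above, while the GALNT3 KO clones stay between -1.19 and 0.62.

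UNC5C, a further repulsive netrin receptor, was lower on every array by its brightest probe. Its log2 ratios were -1.19 and -0.51 for GALNT3 KO and -0.97 and -1.96 for the GALNT3/T6-labelled arrays. The ranges of the 2 groups overlap. The fall was called on the GALNT3/T6-labelled arrays (mean -1.46 ± 0.29 SE, adjusted p = 0.0147). That call rests on the spread shared with the other group, since it was lost at an adjusted p of 0.0516 with the spread taken from the 2 arrays alone. In the GALNT3 KO clones the mean of -0.85 ± 0.29 (SE) was not called (adjusted p = 0.115). The groups differed by -0.61 (95% interval -1.68 to 0.46, adjusted p = 0.392). Without replicate 1 of the GALNT3/T6 KO label the difference was -1.10, and without replicate 2 it was -0.12. Each of these runs leaves 1 array in that group, which cannot show whether the groups differ. The 3 UNC5C probes did not give 1 answer. Probe 2 read -0.92, -0.58, -0.54 and -0.97 in the order of the arrays above. Probe 3, which lies farthest toward the start of the gene over a span of 56846 bases, read 0.02, -0.13, 0.07 and 0.01. It is dim, with Ctrl signals of 7.44, 7.04, 7.06 and 7.12, near the lowest signals well above background (6.54 to 6.83). Its ratios therefore say little about the other probes. With the 3 probes averaged, the fall on the GALNT3/T6-labelled arrays was -0.73 (adjusted p = 0.0157).

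UNC5A and DCC were called in no comparison, and UNC5D was too dim to be tested. UNC5A, the family's receptor studied mainly in neurons, read -0.06 and 0.04 in GALNT3 KO and 0.19 and 0.26 on the GALNT3/T6-labelled arrays. Its mean of 0.22 ± 0.08 (SE) in the latter was not called (adjusted p = 0.0821). DCC, the attractive netrin receptor, read -0.04 and -0.04 for the GALNT3 KO clones and then -0.10 and -0.20 (mean -0.15 ± 0.08 SE, adjusted p = 0.19). DCC's Ctrl channel itself varied by 1.59 log2 units over the 4 arrays, more than any other member's, and its second probe did not pass the filter. UNC5D was well above background in the KO channel on 1 array and in the Ctrl channel on none, so it has no ratio here.

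NTN4 rose on the GALNT3/T6-labelled arrays and had ratios at 0 in the GALNT3 KO clones. Its log2 ratios were 0.00 and 0.01 for GALNT3 KO and 4.10 and 4.39 for the other group, with no overlap. The rise had a mean of 4.24 ± 0.10 (SE, n = 2), or 18.9-fold over Ctrl (adjusted p = 9.2e-05), and the difference between the groups was also 4.24 (adjusted p = 0.000416). NTN4 ranked 116th from the highest of 27220 genes in the first of these. Its KO channel read 12.03 and 12.48 on the log2 scale on the GALNT3/T6-labelled arrays, against 7.18 and 6.84 for GALNT3 KO. On the second GALNT3 KO array neither channel was well above background, so the difference between the groups has 1 measured array on the GALNT3 KO side. NTN4 therefore passed the filter on dim probes only through the GALNT3/T6-labelled arrays, where it is high. Its calls, its rank and its place in the counts below draw on that selection. The Ctrl signal of NTN4 was 7.93 and 8.09 on the GALNT3/T6-labelled arrays against 7.18 and 6.83 on the others, although the Ctrl RNA has 1 label. NTN1, the secreted ligand of DCC and the UNC5 receptors, had no shared direction. Its log2 ratios were 0.18 and 0.52, then -0.47 and 0.20, and no comparison called it. The groups differed by -0.49 (95% interval -1.19 to 0.22). Without replicate 1 of the GALNT3/T6 KO label the difference was -0.15, and without replicate 2 it was -0.82. Each of these runs leaves 1 array in that group, which cannot show whether the groups differ.

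**Figure D2:**
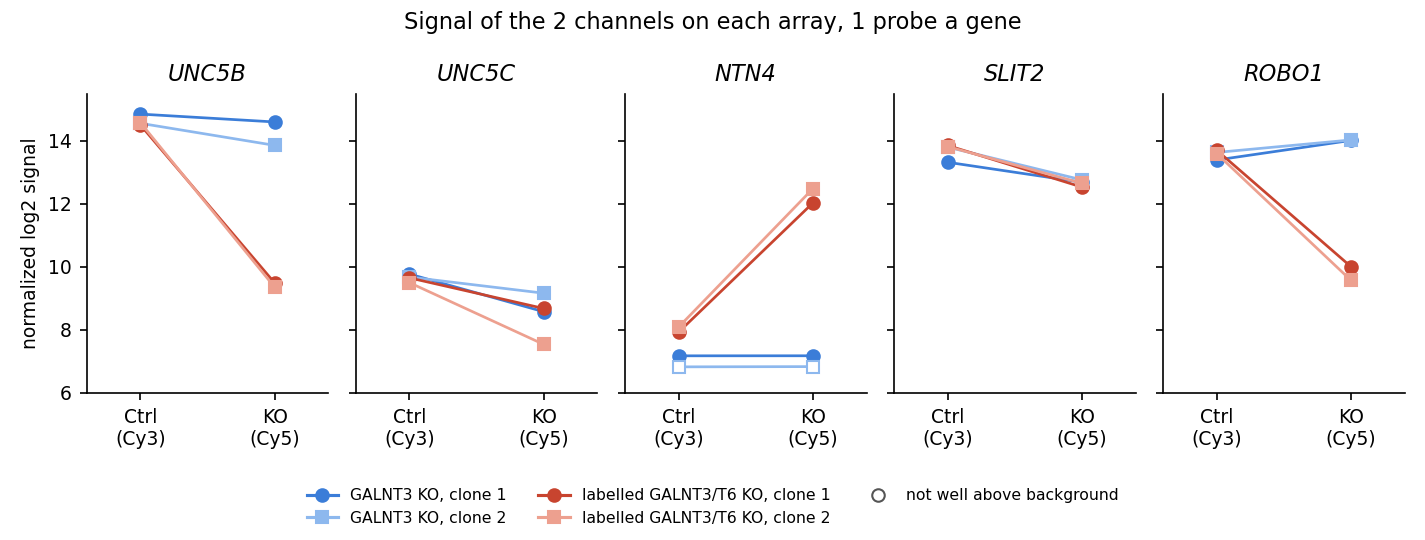
Normalized log2 signal (vertical axis) of the Ctrl (Cy3) and KO (Cy5) channel for the probe used for UNC5B, UNC5C, NTN4, SLIT2 and ROBO1, with a line joining the 2 channels of each array and open symbols where the probe was not well above background. The Ctrl signals of UNC5B lie together at 14.50 to 14.85, and the KO signals split into 13.86 and 14.60 against 9.36 and 9.49; levels may be compared within a gene only.

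SLIT2, the repellent ligand of the Robo receptors, was lower than Ctrl on all 4 arrays. Its log2 ratios were -0.63 and -1.04 for GALNT3 KO and -1.32 and -1.16 for the GALNT3/T6-labelled arrays. SLIT2 was the only tested member called in both groups, with means of -0.84 ± 0.13 (SE, adjusted p = 0.0337) and -1.24 ± 0.13 (SE, adjusted p = 0.00212). These correspond to 56.0% and 42.3% of Ctrl, the same Ctrl label being shared by both. The groups do not overlap, but their difference of -0.41 was not called (95% interval -0.88 to 0.07, adjusted p = 0.196). The call in the GALNT3 KO clones did not hold with the replicate number as a block (adjusted p = 0.101), a setting that called only 0.301% of all genes there. With either GALNT3 KO array left out, 1 array remains in the group, at -1.04 or -0.63, which cannot show whether the call holds.

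ROBO1, the main Slit receptor of the list, had ratios of opposite sign in the 2 groups by its brightest probe. The log2 ratios were 0.62 and 0.40 in the GALNT3 KO clones and -3.69 and -4.02 on the GALNT3/T6-labelled arrays. The mean of 0.51 ± 0.12 (SE) in GALNT3 KO was not called (adjusted p = 0.0621). In the other group ROBO1 fell to 6.90% of Ctrl (mean -3.86 ± 0.12 SE, adjusted p = 0.000111), the 45th lowest of 27220 genes. The difference between the groups was -4.37 ± 0.17 (SE, adjusted p = 0.000457). The KO signal read 14.01 and 14.03 for GALNT3 KO against 10.00 and 9.57, with every spot well above background. ROBO1's second probe, which lies 2536 bases away toward the start of the gene, read -0.14, -0.06, -1.41 and -1.98. It kept the direction of the fall on the GALNT3/T6-labelled arrays, but its mean of -1.70 there was 2.16 log2 units closer to 0 than that of the first. With the 2 probes averaged, the fall was -2.78 (adjusted p = 0.000216) and the GALNT3 KO mean 0.20 (adjusted p = 0.303). ROBO2, the related receptor, had similar small ratios in all clones, with -0.23 and -0.34 for GALNT3 KO and -0.28 and -0.23 for the others, none of it called (adjusted p = 0.0884 and 0.0598). The interval of its difference between the groups runs from -0.28 to 0.34. The second ROBO2 probe read between -0.14 and 0.12 over the 4 arrays, and the third did not pass the filter.

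**Figure D3:**
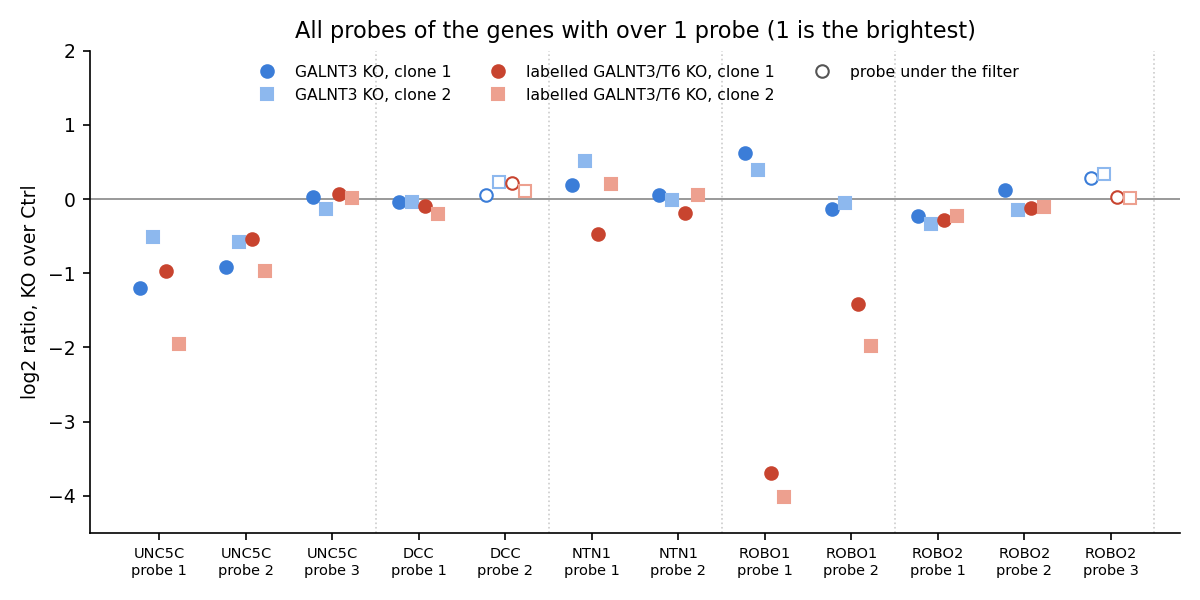
Log2 ratio of KO over Ctrl (vertical axis) on each of the 4 arrays for every probe of the 5 genes that have more than 1, with open symbols for probes that did not pass the filter on dim probes. The ROBO1 probes fall to -3.69 and -4.02 and to -1.41 and -1.98 on the GALNT3/T6-labelled arrays. The third UNC5C probe, which is dim, stays between -0.13 and 0.07 on all arrays.

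Counted over the family, 1 of 9 tested members was called in the GALNT3 KO clones, SLIT2, which was lower. Of all 27220 genes tested in that comparison, 4.69% were called higher and 6.34% lower. Of the 8 tested members other than UNC5B, 1 was called higher (NTN4) and 3 lower (UNC5C, SLIT2 and ROBO1) on the GALNT3/T6-labelled arrays. The shares of all genes there were 24.8% higher and 23.1% lower, so 4 of 8 is near the 47.8% called in either direction, and nothing is read from it. Between the groups 1 of 8 was higher and 1 lower, against 11.8% higher and 11.8% lower of all genes. By the study's own criterion, a p of at most 0.05 with a change of at least 1.5-fold, 2 of 9 members passed in GALNT3 KO, where 9.61% of all genes did. That criterion passed 4 of 8 on the GALNT3/T6-labelled arrays and 2 of 8 between the groups, with 31.8% and 26.9% of all genes. In order of the mean ratio on the GALNT3/T6-labelled arrays, UNC5B was lowest, followed by ROBO1, UNC5C, SLIT2, ROBO2, DCC, NTN1, UNC5A and NTN4. UNC5B was picked by these values, so nothing is read from its place in that order. Among the others UNC5C overlaps SLIT2, and NTN1 overlaps its neighbours DCC and UNC5A.

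The 5 genes closest to UNC5B by Euclidean distance over the 4 log2 ratios were ANO3 (distance 0.49), MGAT3 (0.51), KBTBD7 (0.78), RASGEF1A (0.83) and SPRY2 (0.86). MGAT3, which adds the bisecting residue to N-glycans, read -0.56 and -0.67 in GALNT3 KO and -4.66 and -5.04 on the GALNT3/T6-labelled arrays. SPRY2, an inhibitor of receptor tyrosine kinase signalling, read -0.20 and 0.04, then -5.19 and -5.63. ANO3 read -0.09 and -0.28, then -5.13 and -5.38. Of these genes KBTBD7 was above background in the KO channel on only 1 of the 2 GALNT3/T6-labelled arrays. The distance describes 4 arrays and was computed from the values that picked UNC5B.

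Beyond the 10 genes, 128 genes of the same and neighbouring guidance pathways were listed by function, and 126 of them were tested. In the GALNT3 KO clones 5 were called higher and 10 lower, or 11.9% against 11% of all genes. With the replicate number as a block 0 of the 126 were called, next to 0.301% of all genes. On the GALNT3/T6-labelled arrays 38 were higher and 36 lower, or 58.7% against 47.8% of all genes. Between the groups 24 were higher and 16 lower, or 31.7% against 23.7%. With the block 28 were called between the groups, next to 17.5% of all genes. The median log2 ratio of the 126 genes was -0.02 in GALNT3 KO and -0.01 in the other group, next to 0.02 and 0.03 over all genes.

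Among the other netrin family members (17 tested), 2 rose and 1 fell in the GALNT3 KO clones and 3 rose and 5 fell on the GALNT3/T6-labelled arrays, with list medians of 0.02 and -0.07. The called shares were 17.6% and 47.1%, against 11% and 47.8% of all genes. NEO1, neogenin, the DCC homologue that binds netrins and RGM proteins, read -0.02 and -0.43 in GALNT3 KO and -3.24 and -2.71 on the GALNT3/T6-labelled arrays. Its fall in the latter was called (mean -2.98 ± 0.17 SE, adjusted p = 0.000444), and the groups did not overlap. NTNG1, a membrane-anchored netrin, fell there as well, by 2.16 (adjusted p = 0.000205), and so did DRAXIN, a secreted ligand of DCC, by 0.90 (adjusted p = 0.00191). FLRT3, a ligand of UNC5 receptors, fell in the GALNT3 KO clones by 1.85 (adjusted p = 0.017). ADGRL3, a latrophilin that binds FLRT and UNC5 proteins, rose in the GALNT3 KO clones to a mean of 1.45 (adjusted p = 0.00719). Its Ctrl signal was not well above background on the second GALNT3 KO array, so this mean is not exact. On the GALNT3/T6-labelled arrays its KO signal did not stand well above background. The KO signals, set side by side without the Ctrl channel, therefore give only a bound, at least 3.66-fold lower than in GALNT3 KO. The ratios to Ctrl differed by 3.59-fold between the groups, so 3.66 is no bound on that difference. ADGRL3 passed the filter on dim probes only through the GALNT3 KO arrays, where it is high, so its call draws on that selection. The remaining gene called in GALNT3 KO was LRRC4C, a netrin-G ligand, at 0.56 (adjusted p = 0.0453).

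The other Slit and Robo genes (10 tested) had 1 rise and 1 fall in GALNT3 KO and 5 rises and 2 falls on the GALNT3/T6-labelled arrays, with list medians of -0.03 and 0.32. Here the called shares were 20% and 70%, next to the same 11% and 47.8% of all genes. ROBO3, the divergent Robo receptor of commissural axons, read -1.18 and -0.83 in the GALNT3 KO clones and 0.74 and 0.94 on the other arrays. Its fall in the first was called (mean -1.01, adjusted p = 0.0252), and the groups differed by 1.84 (adjusted p = 0.00327). SLIT3 rose in GALNT3 KO, by 0.52 (adjusted p = 0.0354). GPC1, a glypican that can bind Slit, and USP33, a deubiquitinase of Robo, rose on the GALNT3/T6-labelled arrays by 1.44 (adjusted p = 0.00117) and 1.35 (adjusted p = 0.00166).

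Of the cytoplasmic effectors (38 tested), 2 fell and 0 rose in the GALNT3 KO clones, namely CLASP2, a microtubule plus-end protein, at -0.74 and VASP, an actin regulator, at -0.53 (adjusted p = 0.0313 and 0.0336). On the GALNT3/T6-labelled arrays 8 rose and 11 fell, a called share of 50% against 47.8% of all genes, after 5.26% against 11% in GALNT3 KO. The list medians were -0.05 in GALNT3 KO and 0.0033 on these arrays. VASP read -2.80 and -2.75 there, and it fell by 2.77 (adjusted p = 0.000106). PRKCA, of the kinase class that takes UNC5A off the cell surface when activated, read 2.82 and 3.12 and rose (mean 2.97, adjusted p = 0.000229). MYO10, a motor that carries DCC and other cargo into filopodia, read 3.40 and 4.74 and rose (mean 4.07, adjusted p = 0.00108). On the GALNT3 KO arrays its KO signal did not stand well above background. The KO signals, without the Ctrl channel, therefore give only a bound, at least 27.6-fold higher on the GALNT3/T6-labelled arrays. The Ctrl signal of MYO10 was also higher there, at 7.29 and 7.97 against 6.73 and 7.04. The ratios to Ctrl differed by 17.1-fold between the groups, so 27.6 is no bound on that difference. MYO10 passed the filter on dim probes only through the latter arrays, where it is high, so its call draws on that selection. MAP1B, a microtubule-associated target of netrin signalling, read -1.50 and -1.59 in GALNT3 KO and 0.91 and 2.39 on the other arrays, a difference of 3.19 between the groups (adjusted p = 0.0132).

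The list for death signalling of dependence receptors held 8 genes, of which 0 rose and 1 fell in GALNT3 KO and 2 rose and 3 fell on the GALNT3/T6-labelled arrays, with medians of -0.01 and -0.09. The called shares of 12.5% and 62.5%, against 11% and 47.8% of all genes, rest on 8 genes. DAPK1, the kinase that acts in the death pathway of UNC5B, read 0.05 and -0.06 in the GALNT3 KO clones and 1.79 and 2.38 on the GALNT3/T6-labelled arrays. It rose in the latter (mean 2.08 ± 0.16 SE, adjusted p = 0.000903), where UNC5B itself was at -5.12. PPP2R1B, a scaffold subunit of the phosphatase PP2A, fell in GALNT3 KO by 0.69 (adjusted p = 0.0354), with 0.71 and 0.43 on the other arrays. APPL1, an adaptor of DCC, and CASP9, an initiator caspase, fell on the GALNT3/T6-labelled arrays by 0.88 (adjusted p = 0.00874) and 0.67 (adjusted p = 0.00402).

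Semaphorins, plexins and neuropilins (31 tested) had 2 rises and 0 falls in GALNT3 KO, then 12 rises and 7 falls on the GALNT3/T6-labelled arrays, with medians of 0.08 and -0.0073. The called shares were 6.45% and 61.3%, against 11% and 47.8% of all genes. SEMA6A, a membrane-bound semaphorin, rose in the GALNT3 KO clones (mean 0.61, adjusted p = 0.0479, lost under 8 of 16 alternatives with an adjusted p of up to 0.412) and fell on the GALNT3/T6-labelled arrays, with -3.46 and -3.62 (mean -3.54, adjusted p = 0.000133). PLXNA4, a plexin co-receptor of class 3 semaphorins, was the other rise in GALNT3 KO, at 0.45 (adjusted p = 0.0459), and was also lost under 8 of 16 alternatives. SEMA3D, a secreted semaphorin, read 0.82 and 0.45 in GALNT3 KO and -3.36 and -3.88 on the other arrays, where it fell (adjusted p = 0.000256). SEMA5A rose there by 3.45 (adjusted p = 0.00185), and it passed the filter on dim probes only through those arrays, where it is high. Ephrins and Eph receptors (22 tested) had 0 rises and 5 falls in GALNT3 KO, led by EFNA5 at -1.20 (adjusted p = 0.0116), EPHB3 at -0.94 (adjusted p = 0.0286) and EFNA2 at -0.82 (adjusted p = 0.0266). On the GALNT3/T6-labelled arrays 8 rose and 8 fell, and the medians were -0.06 and -0.13. The called shares of this list were 22.7% in GALNT3 KO and 72.7% here, against 11% and 47.8% of all genes. The receptors EPHB2 and EPHA2 and the ligand EFNA1 rose the most, by 1.75, 1.46 and 1.33 (adjusted p = 0.000323, 0.00409 and 0.00313).

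**Figure D4:**
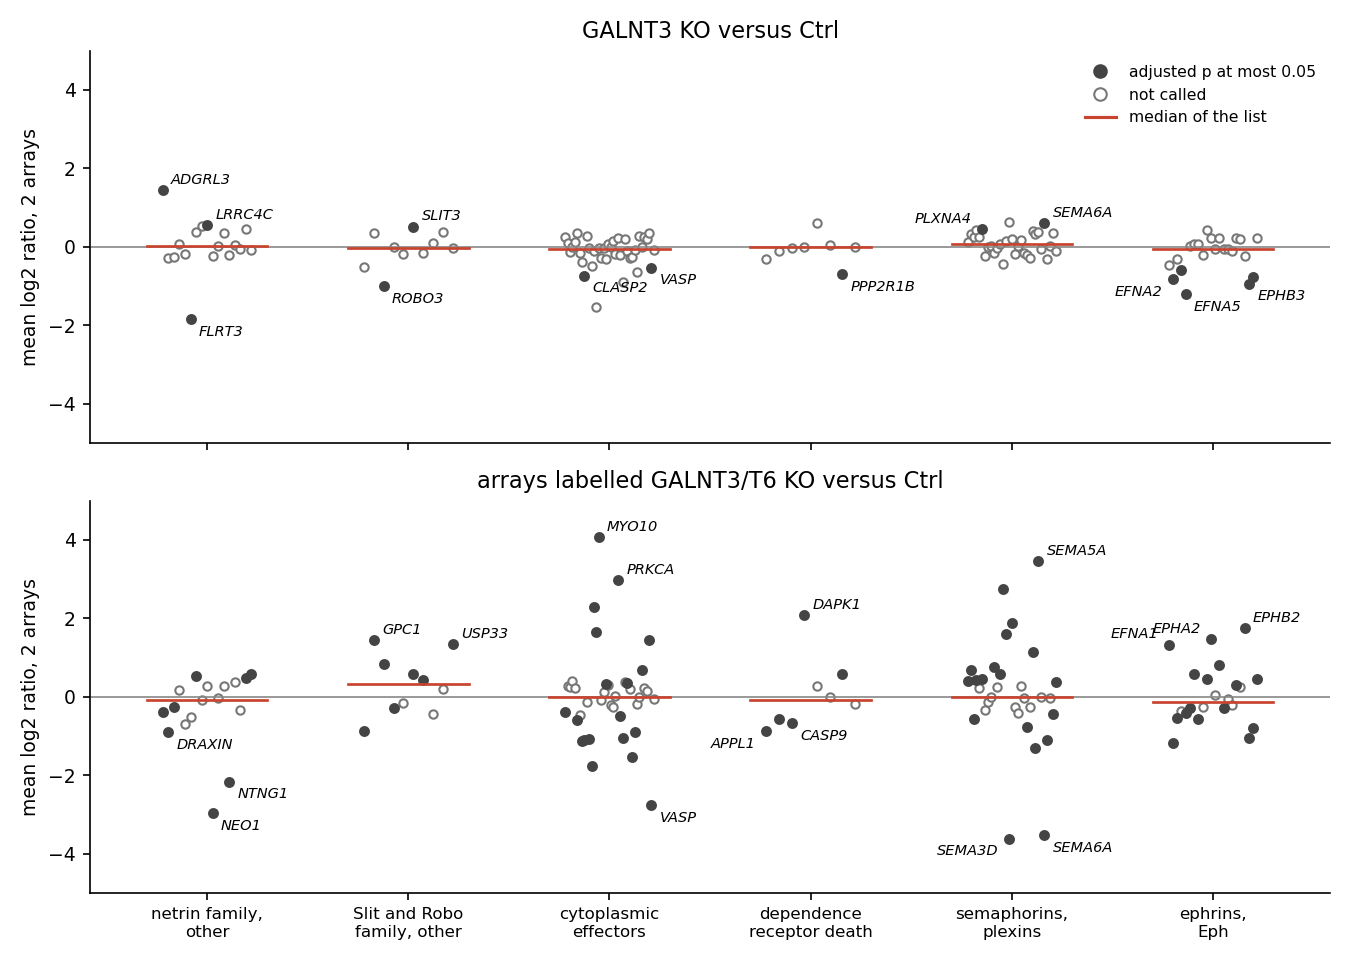
Mean log2 ratio of 2 arrays (vertical axis) for each tested gene of the 6 pathway lists (horizontal axis), with filled points for genes called at an adjusted p of at most 0.05 and a line at the list's median. The GALNT3 KO panel holds 15 called genes and the panel of the GALNT3/T6-labelled arrays 74, while the medians stay near 0 in both, at most 0.32 for the Slit and Robo list.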

How the data were processed

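Total RNA of the 4 KO clones and of Ctrl was hybridized by the authors to 2-colour Agilent whole human genome arrays (4 × 44K), all on 1 slide. Per the labels Ctrl carried Cy3 and KO Cy5 on every array, and this direction was used here. The methods of the study speak of a reverse-colour label for Ctrl, which does not settle whether dyes were swapped, so the sign of every ratio rests on the labels. The deposited scanner files hold spot intensities and log10 ratios of Cy5 over Cy3 made with Agilent Feature Extraction (version 8.5.1.1 in the submitters' processing notes, 10.7.3.1 in the file headers). The deposited value table held the same log10 ratios, rounded, with a median of 0 to 0.0046 per array, and served as an alternative.

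In limma 3.58.1 (R 4.3.3) the background was corrected with normexp (offset 50), the dyes were normalized by loess with control spots at weight 0, and outlier spots were left out. Each gene was read from its brightest probe, provided a channel was well above background on both arrays of a group (27220 genes). NTN4, MYO10, SEMA5A and GALNT3 met this only on the GALNT3/T6-labelled arrays, and ADGRL3 only on the GALNT3 KO arrays. Names came from RefSeq by accession (30364 spots), symbol (2640) or synonym (333), otherwise from the array (10039). All 4 arrays were fitted in 1 model of group means with Benjamini-Hochberg adjustment over all genes, and a gene was called at an adjusted p of at most 0.05. Where a sentence calls a difference a rise or fall, it passed that test. The exceptions are UNC5B on the GALNT3/T6-labelled arrays and probes other than the brightest, which were not tested on their own. The Ctrl was not hybridized against itself, so its own spread is left out. Clones are the replicates (n = 2 per group). The labels name 1 kind of Ctrl, and the methods speak of Ctrls corresponding to the KO clones, so the arrays may not share 1 Ctrl extract. Bounds set channel signals after Aquantile normalization against the lowest signal well above background, and are open to dye bias. The fit was tested on simulated data.

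The members and gene lists were chosen with earlier results of these data known. Named are all members, GALNT3 and GALNT6, up to 3 genes per list and comparison with the largest called change of the same sign on both arrays, and the 5 genes nearest to UNC5B. For 1 gene of the Slit and Robo list that this rule names, the result is not reported here. The marker genes KRT18, PAX8 and WT1 were named after their values were seen. Leukocyte (4 tested) and neural markers (5 tested) had 1 and 2 genes called higher and 1 each called lower on the GALNT3/T6-labelled arrays. Of all genes, 24.8% were called higher there and 23.1% lower. Alternatives were other background corrections, normalizations, probe filters, probe summaries and spreads, and leaving out each array.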

Additional observations from a re-analysis of the deposited data

Results flagged for a closer look

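The effects below differed between the 2 groups by the fit's own test of the difference (GALNT3/T6 KO label minus GALNT3 KO, log2 scale, adjusted p of at most 0.05). Among the members these were NTN4 at 4.24 and ROBO1 at -4.37. NTN4 entered this test only through the GALNT3/T6-labelled arrays, where it is high. UNC5B differed by -4.64, which is the value behind its choice and was not tested.

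In the netrin family list the differences were -2.75 for NEO1, -1.95 for NTNG1, -1.84 for ADGRL3, -0.60 for DRAXIN and 1.34 for FLRT3. In the Slit and Robo list they were 1.84 for ROBO3, 1.39 for USP33 and 1.09 for GPC1. The ratios of ROBO3 and SEMA6A against Ctrl had opposite signs in the 2 groups. The KO signal of ADGRL3 did not stand well above background on the GALNT3/T6-labelled arrays, so its difference is not exact.

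The effectors MYO10, MAP1B, PRKCA and VASP differed by 4.10, 3.19, 2.76 and -2.24. The value of MYO10 is not exact, since its KO signal did not stand well above background on the GALNT3 KO arrays. Those of the death signalling genes DAPK1, PPP2R1B and CASP9 were 2.09, 1.27 and -0.65. Semaphorin differences were -4.26 for SEMA3D, -4.15 for SEMA6A, 3.19 for SEMA3B and 3.08 for SEMA5A. The Ctrl signal of SEMA3B was 12.48 and 13.06 on the GALNT3/T6-labelled arrays against 10.65 and 10.66 on the GALNT3 KO arrays. What this does to its difference was not tested. Neither channel of SEMA5A was well above background on the first GALNT3 KO array, so its value is not exact. The differences of the ephrin list were 1.98 for EPHB2, 1.80 for EFNA1, 1.23 for EPHA2 and 0.78 for EFNA5.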

How the results depend on the processing

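No called result reversed under any alternative run. The calls of members on the GALNT3/T6-labelled arrays stayed between 3 and 5 under all 16 alternatives, with 7 to 9 members tested besides UNC5B, and NTN4 was not tested among probes well above background in both channels on all 4 arrays, which left 1 member called between the groups in place of 2. The GALNT3 KO comparison depended most on the settings. Its 1 called member became 5 with scale normalization between arrays and 6 with the spread from its own 2 arrays, and its 15 pathway genes became 41 and 45, while the share of all genes called rose from 11% to 32.2% and 34.8%. The pathway count was 4 with the log ratio of the Feature Extraction software and 4 with the deposited table, with 2.18% and 2.19% of all genes. Besides SEMA6A and PLXNA4, the GALNT3 KO calls of LRRC4C, SLIT3, CLASP2, PPP2R1B and EFNA2 were each lost under 6 of 16 alternatives. Those of the other list genes named for this comparison were lost under 3 to 5. With the spread from its own arrays the GALNT3/T6-labelled arrays had 48 pathway genes called in place of 74, with 30.4% of all genes. Leaving out each array gave ranges of 0 to 6 members in GALNT3 KO, 3 to 5 on the GALNT3/T6-labelled arrays and 2 to 3 between the groups, and of 0 to 45, 48 to 73 and 10 to 54 pathway genes. The lone array left in a group was assumed to vary like the other group. The replicate block left 0 members and 0 pathway genes called in GALNT3 KO, where it also left only 0.301% of all genes called. The numbers were not taken to pair the arrays, since there are only 2 pairs and the deviations of same-numbered arrays correlated at -0.24 across genes. A crossed pairing, chosen after seeing the data, gave 2 members in that comparison. UNC5B on the GALNT3/T6-labelled arrays was -4.05 with scale normalization and -5.35 with median centring. The causes were not tested, and dim probes such as those of UNC5D and NTN4 in GALNT3 KO are limited by signal over background.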
